A study of Mus musculus with 9 samples.

Results

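The collagen genes were read from all probe sets whose gene symbol is Col, a number, the letter a and a number, such as Col1a1. The array held 82 such probe sets for 42 collagen genes among 18193 genes in all. The probe set with the highest mean over the 9 arrays stood for its gene, and 27 genes had more than 1 probe set. Arrays were run on 3 kinds of mouse cell, 3 arrays each: VSEL (very small embryonic-like stem cells), HSC (haematopoietic stem cells) and the embryonic stem cell line ESC-D3, called ESC here. VSEL were sorted from bone marrow of C57BL/6 mice at 4 weeks of age as Sca-1+ Lin- CD45- cells, and HSC from the same kind of marrow as Sca-1+ Lin- CD45+ cells. ESC-D3, a line of strain 129S2/SvPas from an embryo before implantation, was kept on 0.1% gelatin with 10 ng/ml LIF, so strain and culture cannot be told apart from cell type in comparisons with ESC. No group carried a modified allele. Each library was made from 20 sorted cells through a T7-primed, PCR-amplified cDNA, and no label ties any library to its own mouse or culture. The p-values therefore cover the spread between libraries, which may be technical.

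Collagens are secreted or membrane-bound proteins built from 3 polypeptide chains that wind into a triple helix. Fibrillar collagens form the cables of bone, tendon and skin, and the type I and III genes among them are classic products of osteoblasts and fibroblasts. Type IV collagen forms the sheet of basement membranes, together with laminins, nidogens and perlecan, and the early embryo deposits such a sheet beneath its first epithelia. Gelatin, the coating of the ESC dishes, is itself denatured collagen protein, which an RNA assay does not read.

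Values are log2 RMA values, so a difference of 1 is a 2-fold change. VSEL arrays 2 and 3 differed by more than 4-fold at 1 probe set, against 1565 to 4233 probe sets in the other pairs of a group. They were averaged and counted as 1 library, VSEL 2+3, which leaves 2 VSEL, 3 HSC and 3 ESC libraries. The CD45 gene Ptprc, read as a check of the gates, was dim in VSEL (3.59 and 3.25) and bright in HSC (13.40 to 13.68). Other pan-leukocyte genes did not follow the gate evenly, and the median of 8 such genes was 4.63 in VSEL 1 and 10.81 in VSEL 2+3. The floor of dim genes was higher on VSEL arrays: the lower quartile of all genes lay at 4.72 and 4.78 in VSEL, 4.49 to 4.53 for HSC and 4.54 to 4.55 for ESC. The median of 38 olfactory receptor genes, which these cells would not be assumed to use, was 0.36 higher in VSEL than in HSC and 0.32 higher than in ESC.

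The highest collagen group means were those of ESC. Col4a1, Col4a2 and Col18a1, all encoding basement membrane collagens, were the 3 genes with a group mean of at least 9 in any cell type. Each was highest in ESC, intermediate in VSEL and lowest in HSC, with no overlap between groups. Of the 42 genes, 8 were called in at least 1 of the 3 comparisons and 34 in none, against 30% of all genes called in at least 1. A call means an adjusted p under 0.05 by limma, with Benjamini-Hochberg adjustment over all 18193 genes. Among the 34, 30 stayed below 8 on every array.

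**Figure D1:**
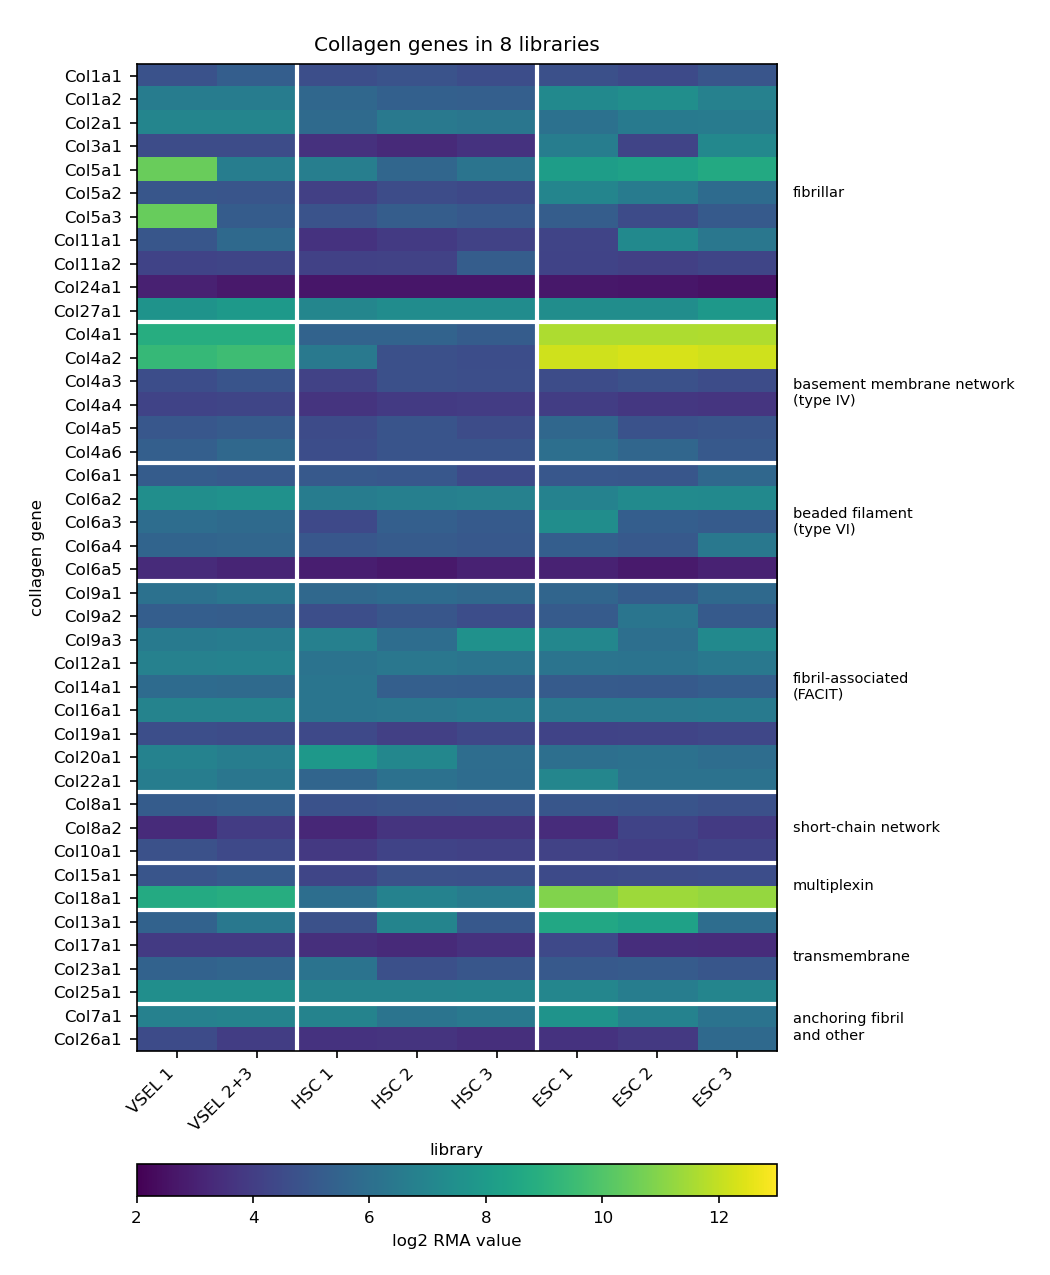
Heat map of the log2 RMA values of 42 collagen genes (down the page, by structural class) in 2 VSEL, 3 HSC and 3 ESC libraries (across); brighter means higher. The rows of Col4a1, Col4a2 and Col18a1 are bright in ESC and intermediate in VSEL, and Col5a1 and Col5a3 are bright in VSEL 1 only among the VSEL libraries.

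In VSEL against HSC, which sets the CD45- gate against the CD45+ gate of the marrow, 7 of 42 collagens were called, all higher in VSEL. They were Col4a1, Col4a2, Col18a1, Col1a2, Col6a2, Col12a1 and Col16a1. The share was 16.7%, against 17.2% of all genes called (8.01% higher and 9.18% lower in VSEL). The count of called collagens was thus near the background, while its direction was all one way. The median log2 difference over the 42 genes was 0.51, against 0.22 over all genes. The groups did not overlap for 30 collagens higher in VSEL (71.4%, against 37.8% of all genes) and for 0 lower in VSEL (17.3% of all genes). For the olfactory receptor genes 22 of 38 were also wholly higher in VSEL (57.9%), so the shift of dim collagens cannot be told apart from the higher floor of the VSEL arrays. The count was 4 without VSEL 1, HSC 1 or HSC 2, and 3 without HSC 3.

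In VSEL against ESC, which asks how near VSEL come to a pluripotent line, 5 of 42 collagens were called (11.9%, against 16.9% of all genes). Col4a1, Col4a2, Col18a1 and Col5a2 were lower in VSEL (9.52%, against 10.5% of all genes). Col12a1 alone was higher (2.38%, against 6.38%). This split of 1 higher and 4 lower depended on the scaling: it was 4 higher and 3 lower after cyclic loess, 5 and 4 when ribosomal protein genes set the centre of each array, 7 and 4 after quantiles were normalized again, and 6 and 4 with the 9 arrays kept separate. The median difference was 0.13, beside 0.11 over all genes. The groups did not overlap for 16 collagens higher in VSEL (38.1%, against 33% of all genes) and 5 lower (22.6% of all genes). The count was 2 without VSEL 1 or ESC 1, and 3 without HSC 3, ESC 2 or ESC 3. In HSC against ESC 5 of 42 were called, all lower in HSC (11.9%, against 9.93% of all genes lower and 16.9% called in all): Col4a1, Col4a2, Col18a1, Col1a2 and Col5a2. None was called higher in HSC, against 6.99% of all genes. The groups did not overlap for 1 collagen higher in HSC (16.5% of all genes) and 13 lower in HSC (21.5% of all genes). A moderated F test over the 3 cell types called 7 collagens, against 25.5% of all genes. It left out Col16a1 of the 8. The comparisons share samples, so the same gene in several of them is not independent evidence.

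**Figure D2:**
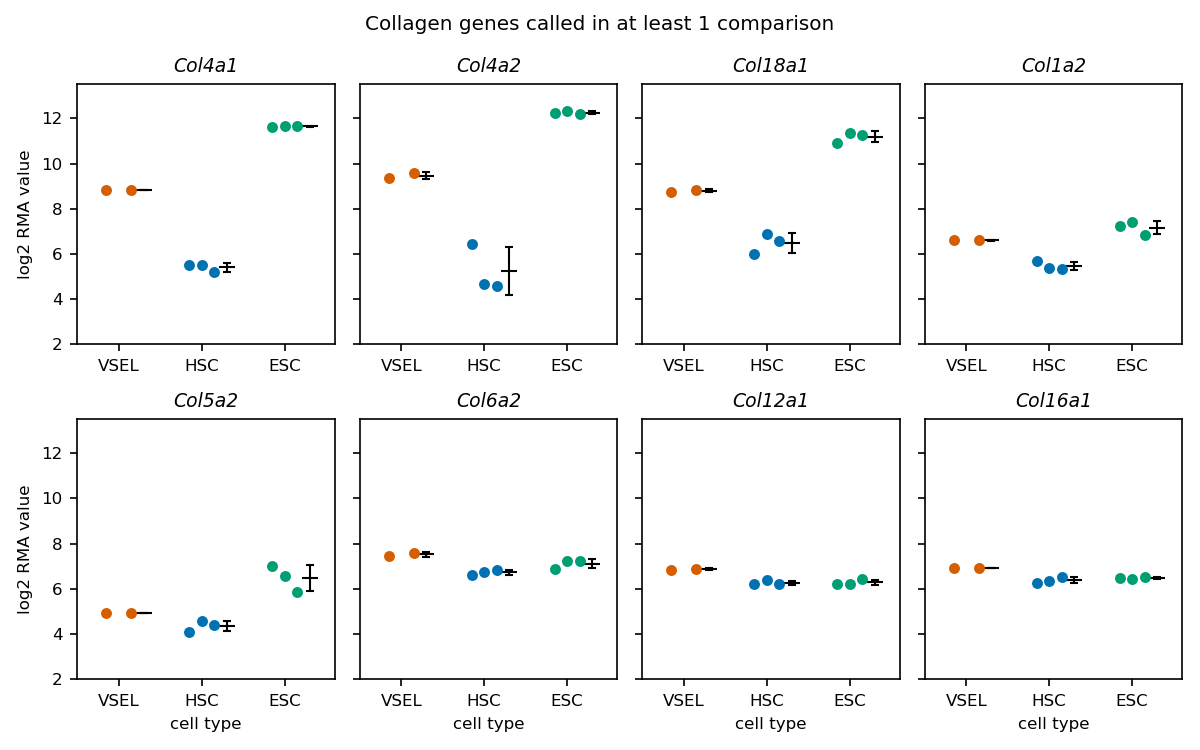
Log2 RMA values of the 8 collagen genes called in at least 1 comparison, with 1 point per library (2 VSEL, 3 HSC, 3 ESC) and the mean ± SD beside the points. Col4a1, Col4a2 and Col18a1 separate the 3 cell types widely, whereas Col6a2, Col12a1 and Col16a1 lie within about 1 log2 unit in all of them.

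Col4a1 and Col4a2 encode the 2 chains of the common type IV collagen network. Col4a1 lay at 8.84, 9.0 and 8.68 on VSEL arrays 1, 2 and 3, at 5.52, 5.52 and 5.18 in the HSC libraries and at 11.63, 11.66 and 11.68 in the ESC libraries. The 3 cell types were far apart, and the ESC libraries were nearly equal. Against HSC, VSEL had 10.8-fold more Col4a1 signal, which is 3.44 on the log2 scale (SE 0.15, limma adjusted p = 7.46e-05). It fell by 2.81 in VSEL against ESC (SE 0.15, adjusted p = 0.000489), and fell by 6.25 in HSC against ESC (adjusted p = 2.15e-06). In these bulk libraries, fewer cells that use a gene and less RNA per cell cannot be told apart.

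Col4a2 lay at 9.36, 9.70 and 9.45 on VSEL arrays 1, 2 and 3, at 6.46, 4.68 and 4.59 in HSC and at 12.22, 12.33 and 12.21 in ESC. HSC 1 stood above the other HSC libraries but below all VSEL arrays. The log2 difference was 4.23 in VSEL against HSC (SE 0.56, limma adjusted p = 0.00529), an 18.7-fold change. Without HSC 1 it was 4.84, or 28.6-fold. Col4a2 fell by 2.79 in VSEL against ESC (SE 0.56, adjusted p = 0.0219) and fell by 7.02 in HSC against ESC (adjusted p = 0.000223), where the difference was -7.63 without HSC 1. The VSEL against ESC call of Col4a2 was lost without either VSEL library or any single ESC library and after cyclic loess (adjusted p of up to 0.0667). The second probe set of Col4a1 kept the order, at 5.96, 7.28 and 6.66 on the VSEL arrays, 4.90, 4.94 and 4.62 in HSC and 8.36, 8.80 and 8.41 in ESC.

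Col4a1 and Col4a2 lie head to head. The promoter windows that RefSeq gives for them (250 bases before to 50 after the start, build GRCm38.p6) share 78 bases. The 2 starts are 21 bases apart and each lies within the other gene, so the genes overlap at their starts. The shared bases all lie at or after the start of 1 or both genes. Both windows are shown because these neighbours moved together, and Col18a1 because it followed the same order from another chromosome. Promoter windows of 33 of the 42 genes were matched by symbol. Capitals mark matches on either strand to the CCAAT box (CCAAT), the GC box (GGGCGG) and the CTC box (CCCTCCCC). TATAAA was searched as well and was in none of the windows shown.
Col4a1, chr8:11312777-11313076, minus strand: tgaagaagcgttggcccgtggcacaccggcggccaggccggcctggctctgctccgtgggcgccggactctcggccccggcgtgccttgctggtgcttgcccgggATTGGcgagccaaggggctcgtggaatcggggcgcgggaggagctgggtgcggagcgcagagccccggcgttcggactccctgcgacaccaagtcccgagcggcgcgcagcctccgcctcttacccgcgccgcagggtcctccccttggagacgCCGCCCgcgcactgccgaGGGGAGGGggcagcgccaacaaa
Col4a2, chr8:11312555-11312854, plus strand: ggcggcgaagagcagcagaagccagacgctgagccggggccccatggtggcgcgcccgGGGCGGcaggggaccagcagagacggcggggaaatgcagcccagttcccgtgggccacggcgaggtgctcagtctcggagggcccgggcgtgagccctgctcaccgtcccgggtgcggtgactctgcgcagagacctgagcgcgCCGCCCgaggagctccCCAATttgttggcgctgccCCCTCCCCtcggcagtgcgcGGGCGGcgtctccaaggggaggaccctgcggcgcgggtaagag
Col18a1, chr10:77166481-77166780, minus strand: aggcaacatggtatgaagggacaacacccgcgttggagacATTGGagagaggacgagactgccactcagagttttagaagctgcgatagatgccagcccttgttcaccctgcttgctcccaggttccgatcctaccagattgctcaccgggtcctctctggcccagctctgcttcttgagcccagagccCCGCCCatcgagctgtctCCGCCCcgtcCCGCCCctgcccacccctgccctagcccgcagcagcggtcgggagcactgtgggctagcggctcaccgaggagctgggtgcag

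The Col4a1 window held 1 CCAAT, 1 GGGCGG and 1 CCCTCCCC, the last 2 in the stretch shared with Col4a2. The Col4a2 window held 1 CCAAT, 3 GGGCGG and 1 CCCTCCCC, and the Col18a1 window held 1 CCAAT, 3 GGGCGG and no CCCTCCCC. A second RefSeq start of Col18a1 had no match to any of the 4 motifs. Col1a2, on chromosome 6, also had ESC highest and HSC lowest without overlap, but was not called in VSEL against ESC. Its window, not shown, held 2 CCAAT, 2 GGGCGG, 3 CCCTCCCC and no TATAAA. Among all 32851 RefSeq windows, 37.4% held CCAAT, 35.7% GGGCGG, 10.8% CCCTCCCC and 13.6% TATAAA. Among 36 windows of collagen genes the shares were 36.1%, 61.1%, 30.6% and 13.9% in the same order. Overlap between motif matches was allowed. These are matches of letters, with no measurement of binding.

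The other type IV chains, which build the basement membranes of kidney, lung and other organs at later stages, stayed dim. The genome holds 3 neighbouring pairs of type IV genes, and Col4a3 with Col4a4 and Col4a5 with Col4a6 form the others. Col4a3, Col4a4, Col4a5 and Col4a6 lay between 3.63 and 6.03 on all arrays and none was called. Col4a6 came nearest to a call, at 5.51 in VSEL, 4.77 in HSC and 5.57 in ESC on average, with an adjusted p of 0.104 in HSC against ESC (limma).

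Col18a1, whose protein is a basement membrane proteoglycan and the source of the fragment endostatin, had the same order. It lay at 8.74, 8.91 and 8.76 on VSEL arrays 1, 2 and 3, at 5.98, 6.87 and 6.56 in HSC and at 10.92, 11.37 and 11.27 in ESC. No library of one cell type reached another. The log2 difference was 2.32 in VSEL against HSC (SE 0.29, limma adjusted p = 0.00408). Col18a1 fell by 2.39 in VSEL against ESC (SE 0.29, adjusted p = 0.00422) and fell by 4.71 in HSC against ESC (adjusted p = 7.15e-05). Its second probe set gave 7.70, 8.41 and 8.11 on the VSEL arrays, 5.88, 6.51 and 6.05 in HSC and 9.84, 10.40 and 10.25 in ESC. Its multiplexin relative Col15a1, found in basement membrane zones of vessels and muscle, averaged 5.01 in VSEL, 4.58 in HSC and 4.55 in ESC and was not called.

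The distance from ESC was close to equal in the 2 VSEL libraries. Col4a1 lay 2.81 below the ESC mean in each (-2.81 in VSEL 1 and -2.81 in VSEL 2+3), Col4a2 at -2.89 and -2.68, and Col18a1 at -2.44 and -2.35. These 3 genes belong to 133 genes chosen by their ESC and HSC values (lowest ESC value more than 3 above the highest HSC value, ESC mean above 10). The median offset of the 133 genes was -2.57 in VSEL 1 and -2.58 in VSEL 2+3. The rule that chose the 133 genes used their ESC values and takes in these 3 collagens, so the offsets are a description only. Their size also depended on the scaling. After cyclic loess the VSEL against ESC differences were -2.09 for Col4a1, -2.04 for Col4a2 and -1.66 for Col18a1. As deposited they were -2.81, -2.79 and -2.39. The VSEL against HSC differences after cyclic loess were 3.94, 4.72 and 2.82 in the same gene order. The offsets of VSEL 2+3 use the average of VSEL arrays 2 and 3. These read 9.0 and 8.68 for Col4a1, on either side of the 8.84 of VSEL 1.

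**Figure D3:**
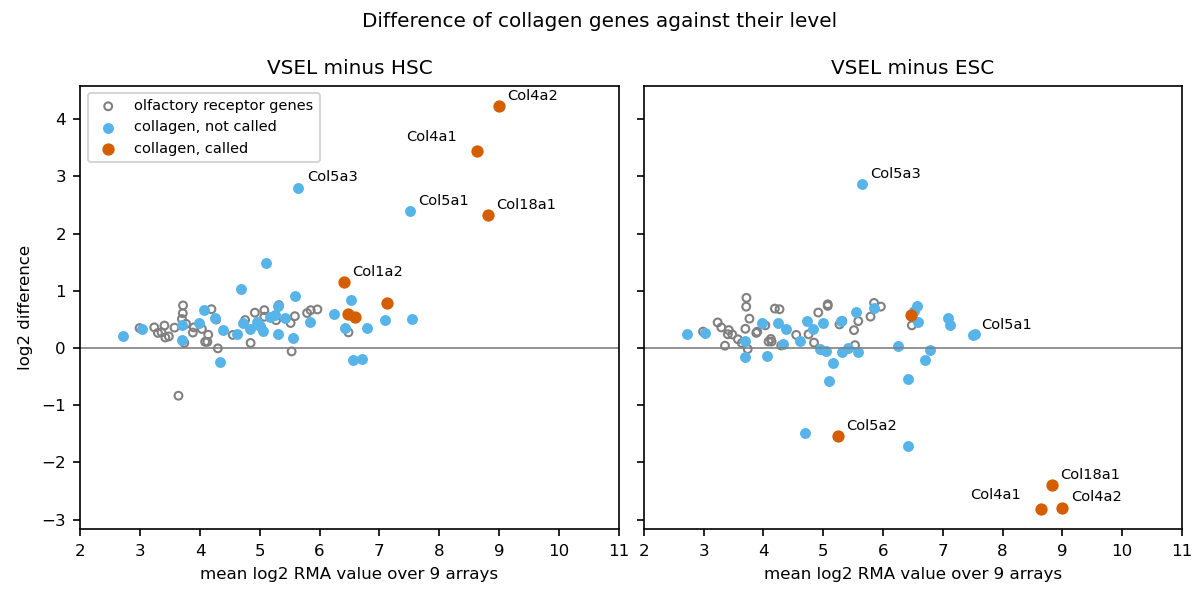
Log2 difference of VSEL against HSC (left) and against ESC (right) for each collagen gene, plotted against its mean log2 RMA value over 9 arrays; open circles are 38 olfactory receptor genes. Most collagens lie slightly above 0 among the olfactory genes in VSEL minus HSC, while Col4a1, Col4a2 and Col18a1 lie far above in VSEL minus HSC and far below in VSEL minus ESC.

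Fibrillar collagens gave few calls. Here and among the later classes, collagens that gave no call are named with values picked after those values were seen. Col1a2, the second chain of type I collagen, lay at 6.60, 6.59 and 6.67 on VSEL arrays 1, 2 and 3, at 5.68, 5.36 and 5.33 in HSC and at 7.22, 7.42 and 6.84 in ESC. Groups did not overlap. In VSEL against HSC the log2 difference of Col1a2 was 1.16, or 2.23-fold (SE 0.21, limma adjusted p = 0.0174), and Col1a2 fell by 1.70 in HSC against ESC (SE 0.19, adjusted p = 0.00168). Against ESC it was -0.54 (adjusted p = 0.13) and not called. The VSEL against HSC call was lost without VSEL 2+3 or HSC 3. It was also lost with the mean of all probe sets and, as was the HSC against ESC call, without probe sets that can match several transcripts. Its second probe set was uneven within groups, at 5.07, 3.67 and 3.94 on the VSEL arrays, 2.94, 3.73 and 3.48 in HSC and 6.27, 3.44 and 7.33 in ESC.

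Col1a1, the partner chain and a marker of osteoblasts, stayed dim, at 4.75, 5.31 and 5.27 on the VSEL arrays, 4.63, 4.82 and 4.61 in HSC and 4.67, 4.47 and 4.92 in ESC. No comparison called it (limma adjusted p of 0.318 in VSEL against HSC), and its second probe set lay between 3.01 and 3.87. Col3a1, the chain of type III collagen in fibroblasts, lay at 4.54, 4.39 and 4.68 on the VSEL arrays, 3.58, 3.30 and 3.63 in HSC and 6.68, 4.25 and 7.13 in ESC. It was high in ESC 1 and ESC 3 and dim in ESC 2, the same libraries in which the second Col1a2 probe set was high and dim. The HSC against ESC difference of Col3a1 was -2.52 (SE 0.72, adjusted p = 0.0643) and was not called.

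Col5a2, which regulates fibril diameter and is the genomic neighbour of Col3a1, lay at 4.94, 4.92 and 4.92 on VSEL arrays 1, 2 and 3, at 4.10, 4.57 and 4.38 in HSC and at 7.0, 6.57 and 5.83 in ESC. ESC was above both marrow groups in every library. Col5a2 fell by 1.54 in VSEL against ESC (SE 0.35, limma adjusted p = 0.0309) and fell by 2.12 in HSC against ESC (SE 0.31, adjusted p = 0.00511). The VSEL against ESC call was lost without VSEL 1, VSEL 2+3, HSC 3, ESC 1 or ESC 2. With the mean of its 2 probe sets the VSEL against ESC difference was -0.51 (adjusted p = 0.231), and the call was also lost in the fit on the 2 compared groups alone. The second probe set did not show the difference: it lay at 3.52, 5.09 and 4.17 on the VSEL arrays, 3.63, 3.78 and 3.79 in HSC and 3.70, 3.62 and 3.36 in ESC.

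Type V genes split the VSEL libraries. Col5a1 and Col5a3 fall outside the rule for full values and are given because of this split, seen in the values. Col5a1, the main chain of type V collagen, lay at 10.49, 6.89 and 6.47 on VSEL arrays 1, 2 and 3, at 6.72, 5.64 and 6.23 in HSC and at 8.11, 8.31 and 8.68 in ESC. Col5a3 lay at 10.43, 5.20 and 5.24 on the VSEL arrays, 4.80, 5.23 and 5.04 in HSC and 5.26, 4.50 and 5.12 in ESC. VSEL 1 was thus the highest of all arrays for both genes, while VSEL 2+3 lay among HSC for Col5a1.

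The log2 differences of VSEL against HSC were 2.39 for Col5a1 (SE 1.03, limma adjusted p = 0.154) and 2.80 for Col5a3 (SE 1.36, adjusted p = 0.193), and neither was called. Without VSEL 2+3, both were called higher in VSEL than in HSC and than in ESC. Without either VSEL library, Col5a1 was called lower in HSC than in ESC. The high values rested on 1 probe set each: in VSEL 1 the other probe sets of Col5a1 read 6.72 and 4.80 and that of Col5a3 read 4.71, all near their values elsewhere.

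These were the 2 collagens whose VSEL libraries differed by more than 1 log2 unit. The share was 4.76% of collagens, against 23.5% of all genes. Such a split was also present in 5 probe sets that were not used, 1 each of Col14a1, Col9a1, Col1a2, Col5a2 and Col4a1. Those of Col14a1 and Col9a1 split most. For Col9a1 the second probe set lay at 7.53 in VSEL 1 and 4.45 and 4.61 on VSEL arrays 2 and 3, against 4.10 to 4.51 in HSC and ESC. For Col14a1 the second probe set lay at 4.12 in VSEL 1 and 7.98 and 7.91 on VSEL arrays 2 and 3, against 3.76 to 4.31 in HSC and ESC.

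**Figure D4:**
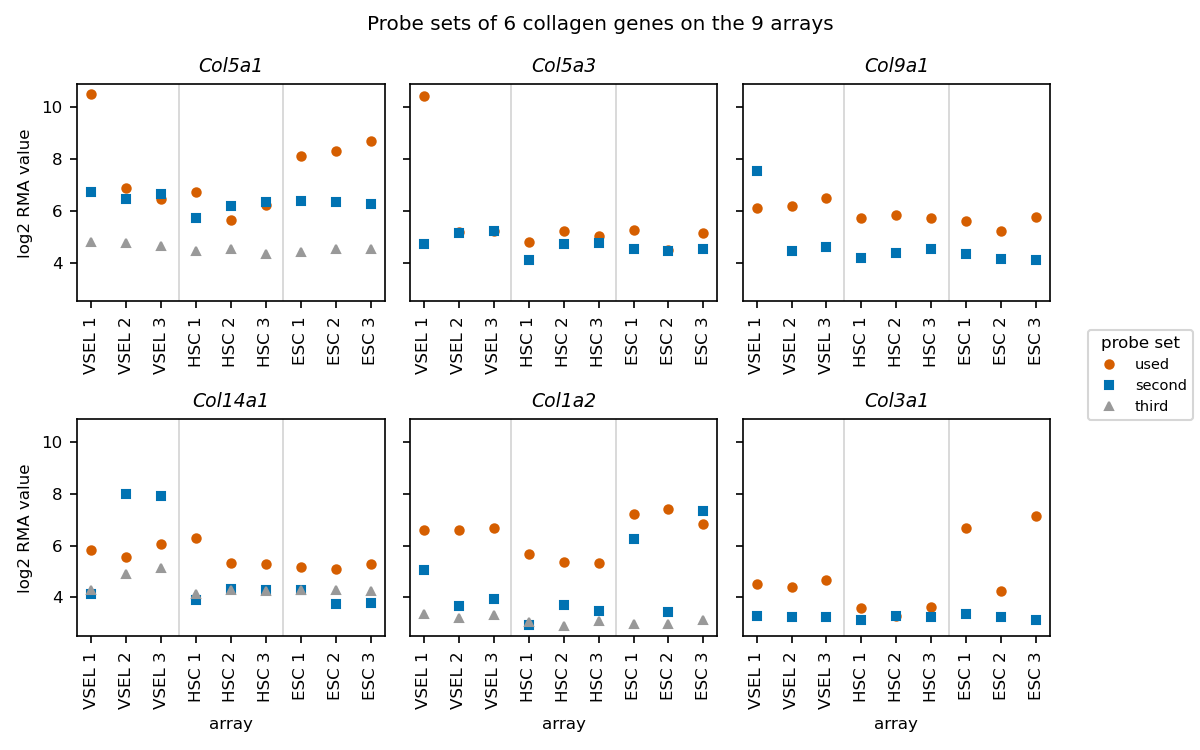
Log2 RMA values of each probe set of 6 collagen genes on the 9 arrays (3 VSEL, 3 HSC, 3 ESC); the used probe set has the highest mean. Single probe sets of Col5a1, Col5a3 and Col9a1 are high in VSEL 1, one of Col14a1 is high in VSEL 2 and 3, and those of Col1a2 and Col3a1 differ between ESC libraries.

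The other fibrillar genes gave no call. Col11a1, a fibril-nucleating chain of cartilage, lay at 4.96, 5.88 and 5.63 on the VSEL arrays, 3.61, 3.86 and 4.16 in HSC and 4.25, 7.23 and 6.35 in ESC, so it varied most within ESC. Col2a1, the main collagen of cartilage, averaged 7.02 in VSEL, 6.18 in HSC and 6.38 in ESC (limma adjusted p = 0.0642 in VSEL against HSC). Col11a2, Col24a1 and Col27a1 were not called either.

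Small differences were called for a beaded-filament and 2 fibril-associated genes. Col6a2, a chain of the pericellular type VI network, lay at 7.45, 7.52 and 7.65 on the VSEL arrays, 6.62, 6.73 and 6.83 in HSC and 6.88, 7.25 and 7.21 in ESC. Its VSEL against HSC difference was 0.79 (SE 0.17, limma adjusted p = 0.027), and no group overlapped VSEL. The call was lost without either VSEL library or any HSC library, with the mean of its probe sets, among genes above the median, in the fit on the 2 compared groups alone and with an intensity trend and robust priors. Col6a1, its chain partner and neighbour, averaged 5.14 in VSEL, 4.84 in HSC and 5.19 in ESC and was not called, nor were Col6a3, Col6a4 and Col6a5.

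Col12a1, which coats fibrils in tendon and ligament, lay at 6.83, 6.78 and 7.0 on the VSEL arrays, 6.20, 6.37 and 6.22 in HSC and 6.23, 6.20 and 6.42 in ESC. VSEL was higher by 0.60 than HSC (SE 0.14, limma adjusted p = 0.0357) and by 0.58 than ESC (SE 0.14, adjusted p = 0.0392). Col16a1, another fibril-associated chain, lay at 6.92, 6.86 and 6.98 on the VSEL arrays, 6.26, 6.34 and 6.54 in HSC and 6.46, 6.43 and 6.52 in ESC. Its VSEL against HSC difference was 0.54 (SE 0.14, adjusted p = 0.0454). The olfactory receptor genes shifted by 0.36 in the same direction in VSEL against HSC and by 0.32 in VSEL against ESC, and the part of this shift in the 3 genes' differences was not tested. Col12a1 lost its calls without either VSEL library, any HSC library, ESC 1 or ESC 2, and the VSEL against ESC call also without ESC 3. Col16a1 lost its call without any single library. The fit on the 2 compared groups alone, the filter on the median and the intensity trend with robust priors ended these calls of Col12a1 and Col16a1 too. The VSEL against HSC call of Col12a1 was also lost with the mean of its probe sets (0.39, limma adjusted p = 0.0628). It was lost too without probe sets that can match several transcripts (0.57, adjusted p = 0.088). The VSEL against ESC call of Col12a1 was kept in both. The second probe set of Col12a1 lay at 4.89, 4.34 and 4.99 on the VSEL arrays. It read 3.95, 4.34 and 4.34 in HSC and 4.08, 3.98 and 3.77 in ESC.

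Of the 4 transmembrane collagens none was called. Col13a1, found at cell adhesions and the neuromuscular junction, lay at 5.44, 6.39 and 6.38 on the VSEL arrays, 4.72, 6.96 and 5.01 in HSC and 8.60, 8.32 and 5.95 in ESC. ESC 3 was below HSC 2, so ESC and HSC overlapped (limma adjusted p = 0.205). Col17a1, the hemidesmosome collagen of skin, Col23a1 and Col25a1 were not called. The short-chain genes Col8a1, Col8a2 and Col10a1, the last a marker of hypertrophic cartilage, lay between 3.23 and 5.43 on all arrays. Col7a1, the anchoring fibril of skin, and Col26a1 were not called. Col20a1 was among the few collagens with a lower mean in VSEL than in HSC, at 6.86, 6.64 and 6.65 on the VSEL arrays while HSC read 7.85, 7.08 and 5.94 (limma adjusted p = 0.797, not called).

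Genes that make, cross-link, bind or pair with collagen were counted by list, beside the background shares given above. Of 13 partners of type IV collagen in basement membranes, 8 were higher in VSEL than in HSC and none lower, with a median difference of 1.28. In VSEL against ESC 5 were lower and none higher (median -1.84), and in HSC against ESC 11 were lower and none higher (median -3.54). Some of these calls were lost when single libraries were left out. Those of Hspg2 and Lama5 in VSEL against HSC were lost without any HSC library. That of Lamb2 in VSEL against ESC and that of Hspg2 in HSC against ESC were lost without any ESC library. Lama1 and Lamb1 encode chains of laminin-111, the laminin of the early embryo, and had the order of Col4a1. Lamb1 lay at 9.12 and 9.16 in the VSEL libraries, 5.44, 5.40 and 5.22 in HSC and 11.53, 11.86 and 11.76 in ESC. It was 13.8-fold higher in VSEL than in HSC (limma adjusted p = 6.33e-05) and 5.96-fold lower than in ESC (adjusted p = 0.000694).

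Lama1 was 20.6-fold higher in VSEL than in HSC (adjusted p = 7.84e-05) and 7.87-fold lower than in ESC (adjusted p = 0.000908, both limma). Nid2, which links laminin to type IV collagen, lay at 8.66 and 8.30 in VSEL, 4.00, 3.88 and 3.65 in HSC and 11.17, 11.17 and 11.48 in ESC. Pxdn, the peroxidase that forms sulfilimine cross-links in type IV collagen, was 3.25-fold higher in VSEL than in HSC and 3.57-fold lower than in ESC (limma adjusted p = 0.00881 and 0.00691). No cell type overlapped another for any of these 4 genes.

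**Figure D5:**
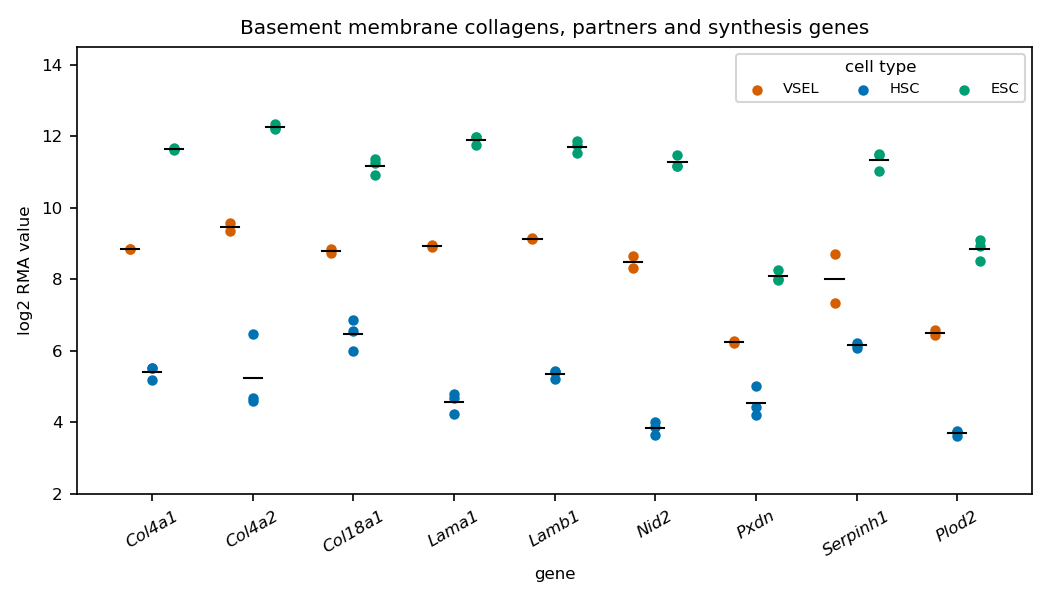
Log2 RMA values of 3 basement membrane collagens, 4 partners (Lama1, Lamb1, Nid2, Pxdn) and 2 synthesis genes (Serpinh1, Plod2), with 1 point per library and a bar at the mean. For each gene shown ESC is highest, VSEL intermediate and HSC lowest. Crtap and P4ha1, named in the text but not plotted, were lower on average in VSEL than in HSC.

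Among 17 enzymes and chaperones of collagen synthesis, 2 were higher in VSEL than in HSC and none lower, 5 were lower in VSEL than in ESC and none higher, and 7 were lower and 1 higher in HSC than in ESC. The HSC against ESC calls of P3h1, P3h4, P4ha2 (lower) and Mia3 (higher) were each lost without HSC 1 or without ESC 1, among others. The VSEL against ESC call of Plod1 was lost without VSEL 2+3 or ESC 1. Serpinh1, the collagen chaperone HSP47, lay at 7.34 and 8.71 in VSEL, 6.08, 6.21 and 6.16 in HSC and 11.03, 11.49 and 11.50 in ESC. It was 3.66-fold higher in VSEL than in HSC (limma adjusted p = 0.0261), a call lost without any single HSC library, and 9.97-fold lower than in ESC (adjusted p = 0.0042). These were 5.88-fold and 6.20-fold without VSEL 1 and 2.28-fold and 16-fold without VSEL 2+3. Plod2, a lysyl hydroxylase that sets collagen cross-links, was 7.01-fold higher in VSEL than in HSC and 5.12-fold lower than in ESC (limma adjusted p = 0.000502 and 0.00157). Crtap and P4ha1, of the prolyl 3- and 4-hydroxylase complexes, were 7.67-fold and 5.66-fold lower in VSEL than in ESC (limma adjusted p = 0.00612 and 0.00726). Neither was called in VSEL against HSC, where the groups overlapped. Their log2 differences there were -0.69 and -0.70, opposite in direction to those of Serpinh1 and Plod2.

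Of 10 processing and cross-linking genes, VSEL had 2 above HSC and 1 below ESC, and HSC had 4 below ESC, with none in the opposite direction. Pcolce, an enhancer of procollagen C-proteinase, was called in all 3 comparisons, at 8.16 and 7.78 in VSEL, 5.12, 5.03 and 5.16 in HSC and 9.07, 10.08 and 10.28 in ESC. Its VSEL against ESC call was lost without VSEL 2+3, ESC 2 or ESC 3. Pcolce2 was 3.22-fold higher in VSEL than in HSC (limma adjusted p = 0.0476), a call lost without any single library other than ESC 3. The lysyl oxidase gene Lox and the C-proteinase gene Bmp1 were called only in HSC against ESC, where they fell by 1.34 and 1.16 (limma adjusted p = 0.0079 and 0.0382). The call of Bmp1 was lost without VSEL 1, VSEL 2+3, HSC 2, HSC 3, ESC 2 or ESC 3.

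Of 9 collagen receptor genes, 1 was higher and 1 lower in VSEL than in HSC, 1 was lower in VSEL than in ESC, and 1 was higher and 1 lower in HSC than in ESC. Ddr1, a receptor tyrosine kinase for collagens, averaged 7.64 in VSEL, 6.56 in HSC and 8.62 in ESC and was called in each comparison, that against ESC not without VSEL 1, ESC 1 or ESC 2. Itgb1, the beta chain of the collagen-binding integrins, was 3.26-fold lower in VSEL than in HSC (limma adjusted p = 0.0294), and Itga1 was 7.44-fold higher in HSC than in ESC (adjusted p = 0.0258). The call of Itgb1 was lost without any VSEL or HSC library or ESC 3. That of Itga1 was lost without HSC 2 or any ESC library, and Itga1 was 12.2-fold higher without HSC 1 and 4.75-fold without HSC 3. Of 6 degradation genes 1 was called in VSEL against HSC: Mmp2, the gelatinase A gene, 3.25-fold higher in VSEL (limma adjusted p = 0.0124) and 7.17-fold lower than in ESC (adjusted p = 0.00237). Mmp9, the gelatinase of neutrophils, split the VSEL libraries, at 9.89 in VSEL 1 and 12.91 in VSEL 2+3, against 10.50, 11.50 and 10.91 in HSC and 6.17, 6.61 and 5.98 in ESC. It was 35.5-fold higher in VSEL than in ESC (limma adjusted p = 0.0116), but 12.4-fold without VSEL 2+3 and 101.2-fold without VSEL 1. VSEL 2+3 was also the VSEL library with the higher pan-leukocyte median, whose part in this split was not tested. In HSC against ESC Mmp9 was 26.3-fold higher (adjusted p = 0.00736).

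Markers of cell types that make collagen were read beside these values. Their counts stand beside the same shares of all genes: 8.01% higher and 9.18% lower in VSEL against HSC, 6.38% and 10.5% in VSEL against ESC, and 6.99% and 9.93% in HSC against ESC. Of 8 genes of parietal and primitive endoderm, the embryonic layer that deposits type IV collagen and laminin, 4 rose in VSEL against HSC and 4 were not called there, 5 were lower in VSEL than in ESC and 6 lower in HSC than in ESC. Their summed log2 level was 59.1 and 51.8 in VSEL, against 39.0 to 40.2 for HSC and 64.1 to 69.4 for ESC. The sums include Thbd, whose split between the VSEL libraries is given below. Gata6 averaged 7.93 in VSEL, 5.27 in HSC and 10.22 in ESC, and Dab2 8.87, 5.10 and 11.58 in the same order. Gata4 lay at 5.95 and 6.75 in VSEL, 4.96 to 5.29 for HSC and 8.89 to 9.14 for ESC. Its VSEL against HSC call was lost without any HSC library, VSEL 2+3, ESC 1 or ESC 3. Of 7 pluripotency genes all were higher in VSEL than in HSC and lower in VSEL than in ESC, with sums of 67.3 and 67.4 in VSEL, 25.8 to 26.1 for HSC and 86.0 to 86.5 for ESC. The part of either cell state in the collagen differences was not tested.

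Of 12 mesenchymal and fibroblast genes, VSEL had 4 called above HSC and 1 below, and 0 above ESC and 2 below. HSC had 1 above ESC and 3 below. Sums were 73.6 and 77.3 in VSEL, 69.4 to 75.9 for HSC and 74.1 to 76.9 for ESC. These sums include Thy1, which alone read 13.23 to 13.77 in HSC, 5.86 and 6.56 in VSEL and 6.01 to 8.14 in ESC. Values of Dcn, Lum, Sp7, Ibsp, Pecam1, Thbd and Cdh5 are given as defining or split markers, and Cxcl12 as a called gene, all picked after they were seen. Dcn, a matrix gene of fibroblasts, lay at 5.51 and 5.97 in VSEL, 4.96 to 5.41 for HSC and 5.38 to 5.83 for ESC and was not called. Lum, another, lay at 5.37 and 4.52 in VSEL, 3.84 to 4.09 for HSC and 3.93 to 4.18 for ESC and was called higher in VSEL than in HSC (limma adjusted p = 0.0488). The call of Lum was lost without any single library other than VSEL 2+3. Cxcl12 of the same list was called 6.56-fold higher in VSEL than in HSC, a call lost without any single library other than ESC 1. The difference of Cxcl12 was 5.23-fold without VSEL 1 and 8.22-fold without VSEL 2+3. The 4 genes of the list with the smallest adjusted p went different ways. Fbln1 averaged 7.36 in VSEL, 5.07 in HSC and 10.02 in ESC, and Pdgfra 6.60, 3.85 and 8.70 in the same order. The VSEL against ESC call of Pdgfra was lost without VSEL 2+3 or ESC 1. Thy1, which haematopoietic cells also express, was 160.2-fold lower in VSEL than in HSC (limma adjusted p = 0.000821) and 89.8-fold higher in HSC than in ESC (adjusted p = 0.000429). Twist1 was called only in HSC against ESC, where it fell by 1.27 (limma adjusted p = 0.0416), a call lost without either VSEL library, any HSC library or ESC 2. Of 5 osteoblast genes only Alpl was called (sums of 27.7 and 27.3 in VSEL, 23.5 to 25.5 for HSC and 28.1 to 29.1 for ESC). Alpl averaged 8.08 in VSEL, 5.72 in HSC and 10.15 in ESC. Embryonic stem cells are known to express Alpl too. Its VSEL against HSC call was lost without VSEL 1, VSEL 2+3 or HSC 3, and its VSEL against ESC call without either VSEL or any ESC library. The osteoblast genes Sp7 and Ibsp were not called. Of 6 chondrocyte genes, Sox9 and Hapln1 were called higher in VSEL than in HSC, each lost without any single library other than VSEL 2+3, with sums of 29.1 and 27.6 in VSEL, 25 to 25.7 for HSC and 25.9 to 26.3 for ESC. Sox9 averaged 5.74 in VSEL, 5.21 in HSC and 5.37 in ESC, and the dim Hapln1 3.44, 2.82 and 2.79. Hapln1 was also called higher in VSEL than in ESC (limma adjusted p = 0.0329), lost without VSEL 1, HSC 3 or any ESC library. The part of the olfactory receptor shift (0.36 against HSC) in these differences was not tested.

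Of 8 endothelial genes none was called in either comparison with VSEL, with sums of 48.8 in VSEL 1, 43.7 in VSEL 2+3, 43.6 to 45.2 for HSC and 46.2 to 49.1 for ESC. Beside the high Col5a1 and Col5a3 of VSEL 1, Pecam1 of the endothelial list and Thbd of the endoderm list read 10.31 and 10.73 in VSEL 1 and 5.61 and 5.10 in VSEL 2+3, while Cdh5, the defining cadherin of endothelium, read 5.32 and 4.77. Their part in the type V values was not tested. Pan-leukocyte sums were 50.3 and 75.9 in VSEL, 100.7 to 101.9 for HSC and 39.7 to 40.2 for ESC. Megakaryocyte sums were 33.3 and 33.1 in VSEL, 31.7 to 39.3 for HSC and 29.7 to 34.2 for ESC, with 1 of 6 genes higher in VSEL than in HSC and than in ESC. That gene, Gp1bb, lost both calls without any single library other than VSEL 2+3.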

How the data were processed

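The authors deposited log2 values for each probe set. The submitters' processing notes name RMA and Partek 6.5, without settings in the sources used here. RMA corrects background, normalizes by quantiles and summarises probes, and quantile normalization can move the floor of dim genes. The values were used as deposited. Of 45101 probe sets, 64 controls and 932 listed for several genes were left out. Symbols came from the platform annotation, updated through the RefSeq table of GRCm38.p6 for 34741 of 34945 probe sets. Collagens Col6a6 and Col28a1 were not analysed here, nor were Fkbp10, Adamts2, Adamts14, Loxl2, Itga11, Runx2, Bglap and Spp1. Detection was not called, and precision is limited by how many arrays there are.

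The tool was limma 3.58.1 (lmFit, eBayes, two-sided, Benjamini-Hochberg) under R 4.3.3, in 1 fit over the 3 cell types and 8 libraries, with 5 residual degrees of freedom and a prior of 1.37, tested on simulated data. The fit shares 1 spread per gene among the cell types. Calls needed an adjusted p under 0.05, and a gene that was not called was not thereby shown to be unchanged. Full values are given for collagens called in a comparison or with a group mean of at least 9. Values or differences are given for up to 4 called genes of each pathway list by adjusted p. Of the marker lists only some called genes are given with values. The members and lists were chosen with earlier results of these data known. Alternatives covered normalization, filter, probe set rule, variance model, duplicate arrays, the replicate number as a block and leaving out each library. No label states whether replicate numbers pair the samples.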

Additional observations from a re-analysis of the deposited data

How the results depend on the processing

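The 17 called differences of single collagens kept their direction under all alternatives that could be run. Col4a1 and Col18a1 kept their calls in all 3 comparisons under each of 18 alternatives, as did Col4a2 against HSC and in HSC against ESC. In VSEL against HSC, 7 called collagens became 15 when arrays were centred on 49 ribosomal protein genes, 4 of the 15 collagens tested among genes above the median, 4 with the mean of all probe sets, 3 of the 38 tested when probe sets open to several transcripts were dropped, and 4 with an intensity trend and robust priors. In VSEL against ESC, 5 became 10 with the 9 arrays kept separate, 11 after another quantile normalization, 9 with ribosomal centring and 3 of 15 among genes above the median. By the F test 7 became 12 after that quantile normalization, 12 with ribosomal centring and 4 of 15 among genes above the median. HSC against ESC stayed within 4 to 6. Cyclic loess, the fit on 2 groups alone and the block moved no count by over 1.5 times. The direction of the VSEL against ESC calls did move, from 1 higher and 4 lower in VSEL to 4 and 3 after cyclic loess, 7 and 4 after quantile normalization, 5 and 4 with ribosomal centring and 6 and 4 with separate arrays. The fit on 2 groups alone ended the calls of Col6a2, Col12a1, Col16a1 and, against ESC, Col5a2. Leaving out 1 library gave 3 to 6 calls for VSEL against HSC, 2 to 5 for VSEL against ESC, 5 to 6 in HSC against ESC and 5 to 7 by the F test; a lone VSEL library is assumed to vary like the other groups. Ribosomal centring put the median of all genes at 0.49 in VSEL against HSC, beside 0.22 as deposited and 0.06 after cyclic loess. Its 15 calls were all higher in VSEL. The cause of these changes was not tested, except that the filter on the median and the probe set drop test fewer collagens; Col6a2 and Col16a1 have no value after that drop. With the 9 arrays kept separate and the replicate number as a block, calls numbered 7 for VSEL against HSC, 6 for VSEL against ESC, 6 for HSC against ESC and 7 by the F test. Deviations of same-numbered arrays of different groups correlated at -0.0888 to 0.155. With 3 arrays per group this cannot show whether the numbers pair the samples, and no label states it.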
